A study of Mus musculus with 20 samples.

Results

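The mRNA levels of 9 enzymes that break down amino acids in the liver were followed: Tat, Hpd and Hgd of tyrosine, Hal of histidine, Sds of serine and threonine, Tdh of threonine, Gldc of glycine, Aass of lysine and Bckdha of the branched-chain amino acids. Their symbols were matched to the Ensembl identifiers of the table of counts, and all 9 were among its 46078 genes. Of these, 8 were among the 14759 genes with enough reads to be tested, and Tdh was not.

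The livers came from 20 male mice, at least 9 weeks old, on a mixed 129/C57BL/6 background, each mouse giving 1 poly(A) RNA library. The product of Cse (Cth), cystathionine γ-lyase, releases cysteine from cystathionine, and mice without it depend on cysteine from food. Cse+/- mice received the 5CC7 control diet (n = 2), the same diet without cysteine (no-Cys, n = 4) or without tryptophan (no-Trp, n = 3), and Cse-/- mice received no-Cys (n = 4), no-Trp (n = 3) or no-Trp with L-buthionine sulfoximine (BSO), an inhibitor of glutathione synthesis (n = 4). No Cse-/- mice on the control diet were in these libraries. The sample labels call the control genotype WT and the knockout cse, whereas the list of mice in the study gives the former as heterozygous, the name used here. In the depleted diets the other amino acids were raised in proportion. Livers were collected after 2 days on the test diet, which in the design described for the liver sequencing followed 3 days of calorie-restricted control diet. In that design the test diets, control included, were restricted in calories as well. The knockout was present in every tissue, and bulk RNA from liver homogenate was sequenced, in which fewer cells of a type and less RNA per cell cannot be told apart.

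Amino acids that are not used for protein are broken down mainly in the liver, where the amino group enters the urea cycle and the carbon skeleton is burned or made into glucose. Enzymes such as Tat and Sds are textbook targets of glucocorticoids, glucagon and cyclic AMP, and rise in fasting and with a high protein intake. Most of these enzymes are made by hepatocytes, and several differ along the axis from portal to central vein.

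The libraries held 11785740 to 57986121 counts on genes, with a median of 15252745. Cth read 88.4 to 332 CPM (counts scaled to a library total of 1e6) in the Cse+/- livers and 6.37 to 14.4 CPM in the Cse-/- livers, and these ranges did not overlap. Hepatocyte markers were abundant throughout, but their sum over Alb, Apoa1, Ttr, Serpina1c and Hnf4a ran lower in Cse-/- no-Cys livers (35137 to 60763 CPM) than in Cse+/- no-Cys (80320 to 102460 CPM) or control livers (102830 to 103670 CPM), and 4 of the 5 markers were called lower by edgeR between these no-Cys groups. Markers of pancreas were at most 1.98 CPM in sum. Adipose markers (Adipoq, Plin1, Cfd) summed to 13.1 CPM in the Cse-/- no-Trp mouse av14 and 30.0 CPM in the Cse+/- no-Trp mouse av17, and to under 1 CPM in the other 18 livers. For the members and for the genes named in comparisons with a no-Trp group, calls that were lost without these 2 mice are given beside the result.

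Per kilobase of exon, the scale on which genes can be set against each other, the medians of the 6 group means were 1272 CPM per kb for Hpd, 845 for Tat, 216.1 for Hgd, 170.5 for Bckdha, 116.8 for Sds, 86.5 for Aass, 71.6 for Hal and 10.6 for Gldc. Exons on the opposite strand cover 61.7% of the exon length of Bckdha and 29.6% of that of Sds, and how reads in such overlaps were counted is not known here, so the places of both genes in this order are uncertain. The tyrosine enzymes Hpd and Tat were thus the most abundant and Gldc the least abundant of the transcripts detected. Tdh, threonine dehydrogenase, had 0 counts in all 20 livers, out of 405398305 counts in all. A count of 0 allows up to 3 counts, which is 0.0523 to 0.27 CPM per library and 0.00742 CPM over all of them, a limit that covers counting error only.

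**Figure D1:**
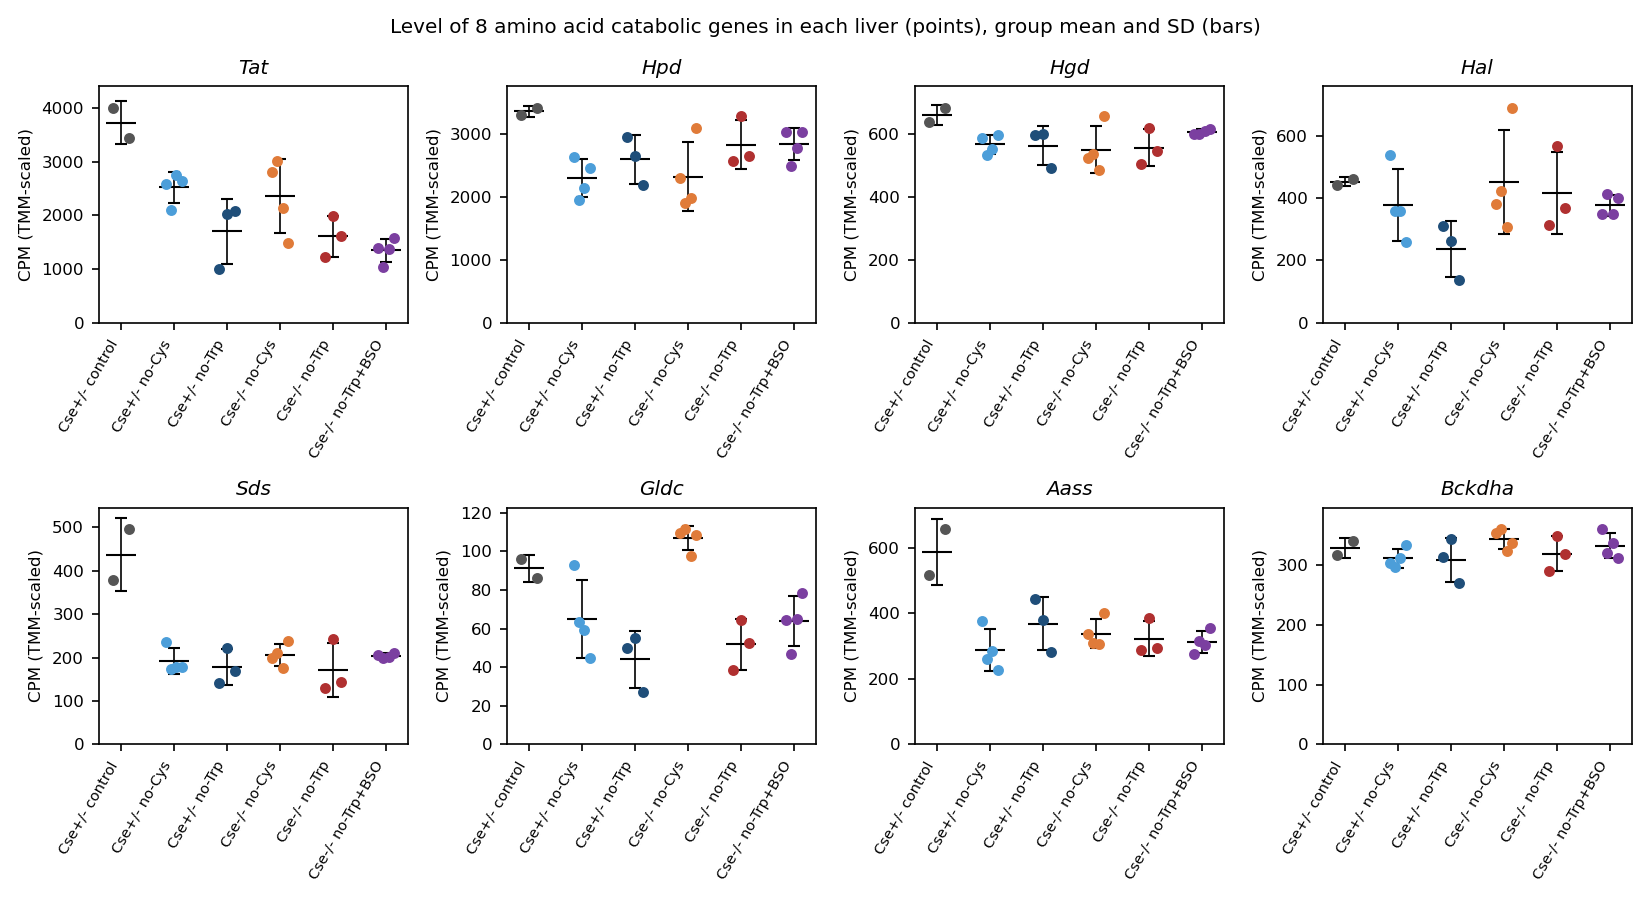
Level of each of the 8 detected genes (vertical axis, CPM scaled by TMM factors, from 0) in every liver, by group (horizontal axis); points are mice and bars are group means with SD. Both control livers lie above the other 18 for Tat, Hpd, Sds and Aass, all 4 Cse-/- no-Cys livers lie above the other 16 for Gldc, and Hgd and Bckdha differ little between groups.

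The upstream sequences of 4 of these genes are shown because their levels set 1 group apart: Tat, Hpd and Aass were highest in both control livers, and Gldc in the Cse-/- no-Cys livers. The sequences come from RefSeq (GRCm38.p6), in which 7 of the 9 genes had an entry, and run from 250 to 11 bases before the transcription start, 5′ to 3′ on the strand of the gene. Capitals mark the CCAAT box and the GC box GGGCGG, each on either strand.
Tat (chr8:109990186-109990425, plus strand): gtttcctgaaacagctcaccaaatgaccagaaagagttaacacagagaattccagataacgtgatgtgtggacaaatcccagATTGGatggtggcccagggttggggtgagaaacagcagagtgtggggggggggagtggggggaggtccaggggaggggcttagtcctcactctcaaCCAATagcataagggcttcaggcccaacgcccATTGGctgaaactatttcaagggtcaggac
Hpd (chr5:123182734-123182973, minus strand): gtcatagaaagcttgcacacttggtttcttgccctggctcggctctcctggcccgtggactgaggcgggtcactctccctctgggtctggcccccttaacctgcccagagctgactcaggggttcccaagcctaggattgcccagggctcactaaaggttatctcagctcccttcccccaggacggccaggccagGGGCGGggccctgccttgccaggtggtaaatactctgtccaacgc
Aass (chr6:23132997-23133236, minus strand): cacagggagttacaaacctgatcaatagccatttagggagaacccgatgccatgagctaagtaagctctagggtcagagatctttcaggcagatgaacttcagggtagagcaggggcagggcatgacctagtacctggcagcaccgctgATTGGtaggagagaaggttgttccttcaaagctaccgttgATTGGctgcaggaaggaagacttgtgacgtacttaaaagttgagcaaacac
Gldc (chr19:30175452-30175691, minus strand): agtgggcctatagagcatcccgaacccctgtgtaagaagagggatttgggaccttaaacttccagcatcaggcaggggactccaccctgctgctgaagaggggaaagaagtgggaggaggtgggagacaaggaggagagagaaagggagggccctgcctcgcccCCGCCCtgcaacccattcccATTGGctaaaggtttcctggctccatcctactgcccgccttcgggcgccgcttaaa

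The letters CCAAT stood in the windows of Tat, Hgd, Hal, Gldc and Aass, 5 of 7, and in 33.0% of 32851 promoters of the same length. GGGCGG was found for Hpd and Gldc, against 31.3% of promoters, and TATAAA for Hgd and Hal, against 12.1%. The glucocorticoid receptor hexamer TGTTCT was in none of the 7 windows and in 15.5% of promoters. The amino acid response element core TGATGCAA (0.77% of promoters), the cyclic AMP element TGACGTCA (1.44%) and the C/EBP palindrome TTGCGCAA (0.161%) were in none of them either, on both strands. These counts describe letters in a short window and say nothing of whether a factor binds. Sds and Tdh had no entry.

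In Cse+/- mice, all 8 detected enzymes had lower mean mRNA levels on either depleted diet than on the control diet, and the differences were largest for Sds. On the no-Cys diet Sds and Aass fell, to 2.28-fold and 2.04-fold lower levels, and on the no-Trp diet Sds fell 2.46-fold. The control group held only 2 mice and both comparisons used them, so they are not independent of each other. For no-Cys, 2 of 8 members were called, against 2.18% of all genes tested, and the median log2 fold change over the 8 was -0.52, against 0.01 over all genes. For no-Trp, 1 of 8 was called, against 0.0474% of all genes, and the median was -0.80, against -0.01. The summed hepatocyte markers were also lower on the depleted diets, at 80320 to 102460 CPM on no-Cys and 69591 to 80038 CPM on no-Trp against 102830 to 103670 CPM on control diet, ranges that did not overlap with control. None of the 5 markers was at 0, and edgeR called 0 of 5 in either comparison, with values below 0 for 5 of 5 on no-Cys and 3 of 5 on no-Trp. Of the bile duct markers 1 of 5 was called lower on no-Cys. Their part in the result was not tested.

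Sds (ENSMUSG00000029597, chr5:120476526-120483932), serine dehydratase, converts serine and threonine into pyruvate and 2-oxobutyrate and feeds gluconeogenesis. Its level was 378 and 496 CPM in the control livers, 236, 174, 178 and 178 CPM in Cse+/- no-Cys livers and 141, 222 and 170 CPM in Cse+/- no-Trp livers. Both control livers stood above every other liver, the highest of which read 242 CPM. The log2 fold change against control was -1.19 (SE 0.205, adjusted p = 0.00547, edgeR quasi-likelihood test) on no-Cys and -1.30 (SE 0.220, adjusted p = 0.0287, edgeR) on no-Trp. The calls rested on few mice: without control mouse av22 they became -0.99 (adjusted p = 0.179, edgeR) and -1.08 (adjusted p = 0.445), and the no-Trp call was also lost without av17 (-1.15, adjusted p = 0.145), without av20 (-1.26, adjusted p = 0.133), without av14 and av17 together (-1.15, adjusted p = 0.0867), or when only the groups compared were fitted (-1.28, adjusted p = 0.232). Opposite-strand exons of Plbd2 and Gm15690 cover 29.6% of the Sds exon length, and since the library kit does not mark strand, their reads cannot be told apart there. Plbd2 itself read 95.4 to 136 CPM and Gm15690 2.35 to 19.7 CPM.

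In Cse-/- mice Sds overlapped the range of the Cse+/- mice on depleted diets. It read 198, 209.6, 177 and 238 CPM on no-Cys, 129, 242 and 143 CPM on no-Trp, and 206, 199, 200.3 and 211 CPM on no-Trp with BSO. These ranges all overlapped. The genotype difference was 0.10 on no-Cys (95% interval -0.27 to 0.48) and -0.05 on no-Trp (-0.48 to 0.37), in log2 units. On no-Trp with BSO the 4 livers lay within 1.06-fold of each other, the tightest Sds group.

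Aass (ENSMUSG00000029695, chr6:23072173-23132986) encodes the mitochondrial enzyme that starts lysine breakdown through saccharopine. It read 516 and 657 CPM in control livers, 376, 260.1, 286 and 227 CPM in Cse+/- no-Cys livers, and 443, 380.2 and 281 CPM in Cse+/- no-Trp livers. Again both control livers were above all others. On no-Cys the log2 fold change was -1.03 (SE 0.189, adjusted p = 0.00701, edgeR), which became -0.85 (adjusted p = 0.210, edgeR) without av22. On no-Trp it was -0.67 (SE 0.202, adjusted p = 0.281, edgeR), with groups that did not overlap. Among Cse-/- livers, Aass ranged from 306 to 399 CPM on no-Cys, 288 to 384 CPM on no-Trp and 276 to 354 CPM with BSO, and these ranges overlapped.

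Tat and Hpd catalyse consecutive steps of tyrosine breakdown, and for each of them both control livers were also higher than the other 18. With Sds and Aass, that made 4 of 8 members with this order, against 1.49% of all genes tested. This order was not among the planned comparisons and rests on the same 2 control mice. The members were also chosen with earlier results of these data known, so the share is a description only. Counting each diet alone, the groups did not overlap for 5 of 8 members on no-Cys against control (25.6% of all genes) and for 7 of 8 on no-Trp against control (27.4%).

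Tat (ENSMUSG00000001670, chr8:109990437-109999803), tyrosine aminotransferase, starts the pathway. It read 4011.5 and 3442 CPM in control livers, 2589.8, 2099.9, 2763 and 2646 CPM in Cse+/- no-Cys livers and 994, 2033 and 2080 CPM in Cse+/- no-Trp livers. In Cse-/- livers it was 2811, 3011.5, 2147 and 1478.5 CPM on no-Cys, 1217, 1993 and 1615 CPM on no-Trp, and 1389, 1047, 1375.5 and 1579 CPM on no-Trp with BSO. No-Trp livers of both genotypes thus lay mostly below no-Cys livers, and the BSO group had the lowest mean. The differences from control were -0.56 (SE 0.271, adjusted p = 0.303, edgeR) on no-Cys and -1.13 (SE 0.287, adjusted p = 0.206, edgeR) on no-Trp, neither of them past the threshold of 0.05. The Wald test of DESeq2 called the second of these (-1.13, adjusted p = 0.0319).

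Hpd (ENSMUSG00000029445, chr5:123171807-123182727), 4-hydroxyphenylpyruvate dioxygenase, takes the product of Tat to homogentisate. It read 3294 and 3413 CPM in control livers, 1948 to 2630.5 CPM in Cse+/- no-Cys livers and 2177 to 2945 CPM in Cse+/- no-Trp livers. In Cse-/- livers Hpd was 2291, 1897, 1980.4 and 3095 CPM on no-Cys, so that mouse av08 stood high, 2564 to 3272 CPM on no-Trp and 2492 to 3027 CPM with BSO. The difference between no-Cys and control in Cse+/- mice was -0.55 (SE 0.175, adjusted p = 0.106, edgeR). DESeq2 gave -0.55 for the same comparison (adjusted p = 0.0493).

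Hgd (ENSMUSG00000022821, chr16:37580153-37632020), homogentisate dioxygenase, follows Hpd and was the steadiest of the tyrosine enzymes. It ranged from 485 to 685 CPM over the 20 livers, with group means from 551 ± 74.2 CPM (SD, n = 4) in Cse-/- no-Cys livers to 662 ± 31.8 CPM (SD, n = 2) in control livers. No comparison called it by edgeR. The genotype difference was -0.04 (95% interval -0.25 to 0.17) on no-Cys and -0.02 (-0.26 to 0.23) on no-Trp.

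Gldc (ENSMUSG00000024827, chr19:30098447-30175429), the decarboxylase subunit of the mitochondrial glycine cleavage system, was the one member called between genotypes. On no-Cys it was higher in Cse-/- than in Cse+/- livers by 1.64-fold, and within Cse-/- mice it was higher on no-Cys than on no-Trp by 2.06-fold. Cse-/- no-Cys livers read 109.6, 112, 97.6 and 108 CPM. Cse+/- livers read 96.3 and 86.3 CPM on control diet, 93.1, 63.4, 59.3 and 44.5 CPM on no-Cys, and 49.8, 55.3 and 27.4 CPM on no-Trp. Cse-/- livers read 38.3, 64.5 and 52.6 CPM on no-Trp and 64.3, 46.9, 65.2 and 78.4 CPM on no-Trp with BSO. Within Cse+/- mice the difference between no-Trp and control was -1.05 (SE 0.275, adjusted p = 0.221, edgeR), with groups that did not overlap, and DESeq2 called it (-1.05, adjusted p = 0.0462).

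All 4 Cse-/- no-Cys livers were thus above the other 16, the nearest being a control liver, and 1.9% of all genes tested had that order. This order was not among the planned comparisons either. The group mean of 107 ± 6.26 CPM (SD, n = 4) stood beside 91.3 ± 7.06 CPM (SD, n = 2) in control livers, whereas the other depleted groups had means of 44.2 to 65.1 CPM. The genotype difference on no-Cys was 0.72 (SE 0.217, adjusted p = 0.0216, edgeR), the sole call among the 8 members, against 23.8% of all genes called in this comparison. The groups did not overlap for 1 of 8 members, against 23.2% of genes. The call was lost by a small margin without av02 (0.70, adjusted p = 0.0520, edgeR), av03 (0.68, adjusted p = 0.0539) or av04 (0.57, adjusted p = 0.0709).

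The difference of Gldc between no-Cys and no-Trp in Cse-/- mice was 1.05 (SE 0.239, adjusted p = 0.00973, edgeR), again the sole call of 8, against 10.4% of genes, and the groups did not overlap for this member alone, against 20% of genes. Without mouse av14, the one with adipose transcripts, the difference was 0.87 (adjusted p = 0.0625, edgeR), and without av14 and av17 it was 0.87 (adjusted p = 0.0661). Without av08, Hpd (-0.46, adjusted p = 0.0331) and Tat (0.72, adjusted p = 0.0458) were called too, and without av15 Sds was (0.59, adjusted p = 0.0310). On no-Trp the genotype difference of Gldc was 0.23 (SE 0.250, adjusted p = 0.673, edgeR), or -0.02 without av20, and the interaction of genotype and diet was 0.49 (SE 0.331, adjusted p = 0.442), so the genotype difference was not shown to differ between the diets. The sum of hepatocyte markers moved the other way from Gldc between the no-Cys groups. Markers of red cells (Hbb-bs, Hba-a1 and Alas2) did so too, with 3 of 3 called lower by edgeR and sums of 59.4 to 101 CPM in Cse-/- and 172 to 363 CPM in Cse+/- livers, as did those of bile duct, with 2 of 5 called lower and sums of 16.4 to 28.6 and 45.9 to 57.9 CPM. Of the markers of lymphocytes (2 tested), stellate cells (5) and endothelium (5), 1 each was called lower, and 1 of endothelium was called higher. Against Cse-/- no-Trp livers (59411 to 64086 CPM in sum), 3 of the 5 hepatocyte markers, 1 of 5 of bile duct and 1 of 3 of red cells were called lower in Cse-/- no-Cys livers by edgeR. Their part in either result was not tested.

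Hal (ENSMUSG00000020017, chr10:93488768-93519304), histidine ammonia-lyase, opens histidine breakdown and varied most between single livers, 5.03-fold from the lowest to the highest. It read 442 and 463 CPM in control livers, 537, 359, 357 and 259 CPM in Cse+/- no-Cys livers and 310.2, 262 and 137 CPM in Cse+/- no-Trp livers. In Cse-/- livers it was 381, 421, 308 and 690.5 CPM on no-Cys, 315, 567 and 369 CPM on no-Trp and 348, 412, 349 and 400.3 CPM with BSO. The Cse+/- no-Trp livers were the lowest group, and all 3 lay below the Cse-/- no-Trp livers. That genotype difference was 0.82 (SE 0.301, adjusted p = 0.150, edgeR) and did not pass the threshold, although it did with no filter on low counts (0.81, adjusted p = 0.0372). Without av14 and av17 it was 1.23 (adjusted p = 0.0592, edgeR), but without av15 it was 0.53 (adjusted p = 0.514) and without av20 0.54 (adjusted p = 0.457).

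On no-Trp, edgeR called 0 of 8 members between the genotypes, against 2.64% of all genes, with 1 at an unadjusted p under 0.05 and 0 by DESeq2. Hal was the 1 member of 8 with groups that did not overlap, against 19.6% of genes. The 95% intervals of the other 7 members covered 0.

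Bckdha (ENSMUSG00000060376, chr7:25629946-25658981), the E1α subunit of the branched-chain keto acid dehydrogenase, commits leucine, isoleucine and valine to breakdown. It was the least variable member, from 269 to 360.1 CPM, with a ratio of 1.11 between the highest and the lowest group mean. Its largest difference in the comparisons of 2 groups was 0.14 (95% interval -0.05 to 0.33, adjusted p = 0.258, edgeR), between the genotypes on no-Cys. Exons of B3gnt8 on the opposite strand cover 61.7% of its exon length, but B3gnt8 read only 0.283 to 1.26 CPM.

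**Figure D2:**
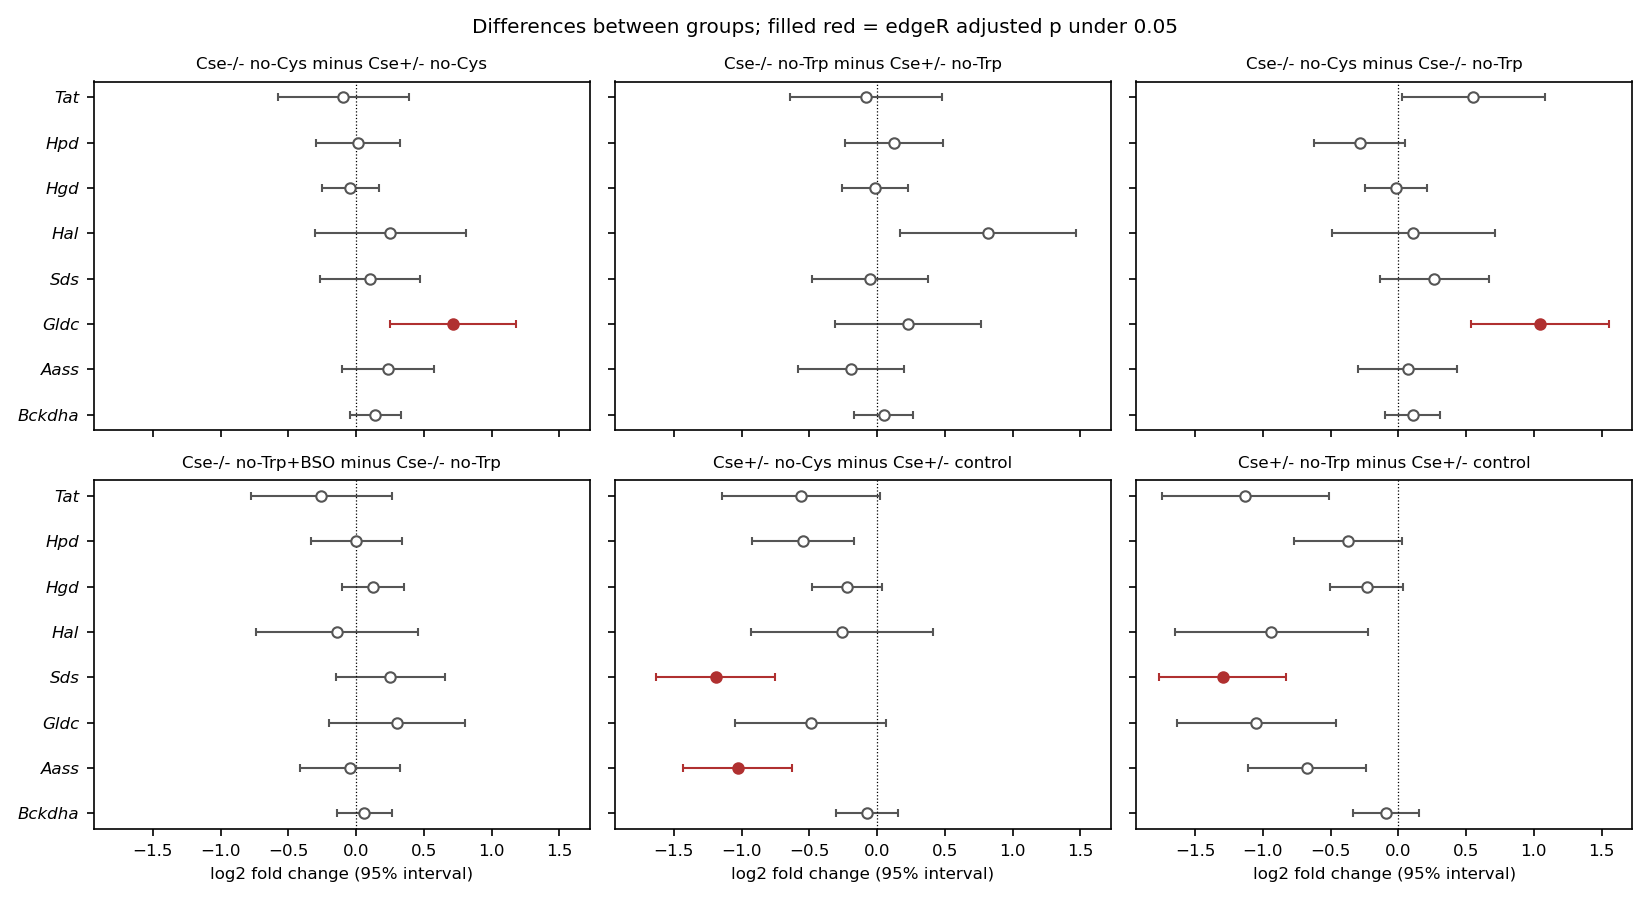
Log2 fold change of each detected member (horizontal axis) with its 95% interval in 6 comparisons of groups; filled red points have an edgeR adjusted p under 0.05. Gldc is filled in both panels with Cse-/- no-Cys livers, Sds in both comparisons with control and Aass in the no-Cys comparison with control. All 8 points lie left of 0 in both panels with control. The comparison of no-Trp with BSO against Cse-/- no-Cys livers, in which edgeR did not call Gldc, is not shown.

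BSO added to the no-Trp diet of Cse-/- mice was followed by no called difference in these enzymes. In that comparison edgeR called 0 of 8 members, against 0.793% of all genes, with 0 at an unadjusted p under 0.05 and 0 by DESeq2, and the groups overlapped for all 8, where 12.6% of genes had groups apart. The interval was narrowest for Bckdha, -0.14 to 0.26, and widest for Hal, -0.74 to 0.46, in log2 units.

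Against Cse-/- no-Cys livers, the no-Trp with BSO group had lower Tat (-0.81, SE 0.227, adjusted p = 0.0580, edgeR) and lower Gldc (-0.74, SE 0.216, adjusted p = 0.0651, edgeR) values, which narrowly missed the threshold. So edgeR called 0 of 8, against 2.75% of genes, with 2 at an unadjusted p under 0.05, while DESeq2 called these 2 (adjusted p = 0.00944 for Tat and 0.0159 for Gldc). Gldc was the 1 member with groups apart, against 12.7% of genes, since Tat in av08 read within the range of the BSO group. Without av08, edgeR called Tat (-0.98, adjusted p = 0.00919) and Hpd (0.46, adjusted p = 0.0358). This comparison shares the Cse-/- no-Cys livers with those of Gldc above. Of the hepatocyte markers 3 of 5 were called higher in the BSO group by edgeR (sums of 55970 to 71461 CPM, against 35137 to 60763 CPM), and of the bile duct markers 2 of 5 (36.3 to 48.6 CPM, against 16.4 to 28.6 CPM). Their part in these values was not tested.

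Between the 2 depleted diets in Cse+/- mice, edgeR called 0 of 8, against 8.04% of genes, with 4 at an unadjusted p under 0.05 and 0 by DESeq2. Those 4 were Tat (0.57, SE 0.246), Hal (0.68, SE 0.285) and Gldc (0.56, SE 0.237), higher on no-Cys in the mean, and Aass (-0.36, SE 0.171), lower, with adjusted p of 0.161, 0.150, 0.155 and 0.204 by edgeR. Each of these values kept its sign but moved when single mice were left out. Without av17 Tat was 0.30 and Aass -0.20, without av20 Hal was 0.41 and Gldc 0.31, and without av01 Gldc was 0.34. Other removals made them larger, to 0.74 for Tat and -0.51 for Aass without av20, 0.92 for Hal without av17 and 0.76 for Gldc without av19. The groups did not overlap for 1 member, Tat, against 19% of genes. The interaction of genotype with these diets gave 0 calls of 8 by edgeR, against 4.36% of genes, with 0 at an unadjusted p under 0.05 and 0 by DESeq2.

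The remaining enzymes of the same pathways, 40 genes of which 39 were tested, moved in both directions between the genotypes on no-Cys. Of the 39, 5 rose and 5 fell, where 11.6% of all genes rose and 12.2% fell, and their median log2 fold change was -0.02, against -0.01 over all genes. Calls were thus about as frequent among these 39 as among all genes, and the genes below are named as single values. In the branched-chain pathway 4 of 22 rose and 3 fell. Bcat2, the mitochondrial branched-chain aminotransferase, rose from 38.9 ± 8.20 to 60.03 ± 7.88 CPM (SD, n = 4 each; log2 fold change 0.63, SE 0.157, adjusted p = 0.00661, edgeR). Bckdk, the kinase that switches off the dehydrogenase, rose by 0.42, Dbt, its E2 subunit, by 0.40, and Mmut, methylmalonyl-CoA mutase, by 0.41. The E1β subunit Bckdhb, partner of Bckdha, fell by 0.33, Acad8, isobutyryl-CoA dehydrogenase, by 0.30, and Pccb, a subunit of propionyl-CoA carboxylase, by 0.27. Subunits of 1 enzyme complex therefore had unlike values: Bckdha 0.14 without a call, Bckdhb lower and Dbt higher. Ppm1k, the phosphatase that opposes Bckdk, read -0.42 (SE 0.184, adjusted p = 0.103).

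Beside Gldc, the glycine cleavage system has the subunits Amt, Gcsh and Dld, of which 1 of 3 rose on the same comparison. Dld, the lipoamide dehydrogenase that is shared with other complexes, rose by 0.29 (SE 0.0905, adjusted p = 0.0241, edgeR), Amt read 0.18 and Gcsh -0.16. Amt, the aminomethyltransferase, was called in other comparisons: it was higher on no-Cys than on control diet in Cse+/- mice (0.63, SE 0.113, adjusted p = 0.00678, edgeR), where Gldc read -0.49. Amt was also higher in Cse-/- than Cse+/- livers on no-Trp (0.41, adjusted p = 0.0391) and on no-Cys than no-Trp in either genotype (0.54 in Cse+/-, adjusted p = 0.00286, and 0.31 in Cse-/-, adjusted p = 0.0430). Gcsh, which carries the lipoyl arm, was lower on no-Cys than on no-Trp in Cse-/- mice (-0.29, adjusted p = 0.0198). Without av14 and av17 the Amt call between diets in Cse+/- mice remained (0.55, adjusted p = 0.0145, edgeR), whereas those between genotypes on no-Trp (0.41, adjusted p = 0.0809) and between diets in Cse-/- mice (0.31, adjusted p = 0.128) were lost, as was that of Gcsh (-0.29, adjusted p = 0.0658).

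In the histidine pathway 1 of 3 fell: Amdhd1, imidazolonepropionase, read 250 ± 11.9 CPM in Cse+/- and 187 ± 16.9 CPM in Cse-/- no-Cys livers (SD, n = 4 each; -0.41, SE 0.0973, adjusted p = 0.00431, edgeR), while Hal, 2 steps before it, read 0.25 without a call, or -0.03 without av08. Ftcd, which passes the product to folate, read 0.13 (SE 0.113, adjusted p = 0.424). In the tyrosine pathway 1 of 5 fell, Qdpr, which regenerates tetrahydrobiopterin (-0.29, SE 0.0964, adjusted p = 0.0360, edgeR). None of 2 genes of serine and threonine breakdown beside Sds was called, Sdsl reading 0.27 and Gcat -0.02, and none of 4 of lysine breakdown, from Aldh7a1 at -0.38 (adjusted p = 0.0689) to Dhtkd1 at 0.16 (adjusted p = 0.608).

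Against control in Cse+/- mice, 1 of the 39 rose and 1 fell on no-Cys, and none was called on no-Trp by edgeR, where 2.18% and 0.0474% of all genes were called. The gene that fell was Sdsl, the serine dehydratase-like gene (-0.79, SE 0.170, adjusted p = 0.0178, edgeR), beside the lower Sds in the same comparison. The median over the 39 was -0.12 on no-Cys and -0.15 on no-Trp, nearer 0 than the medians of the 8 members.

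**Figure D3:**
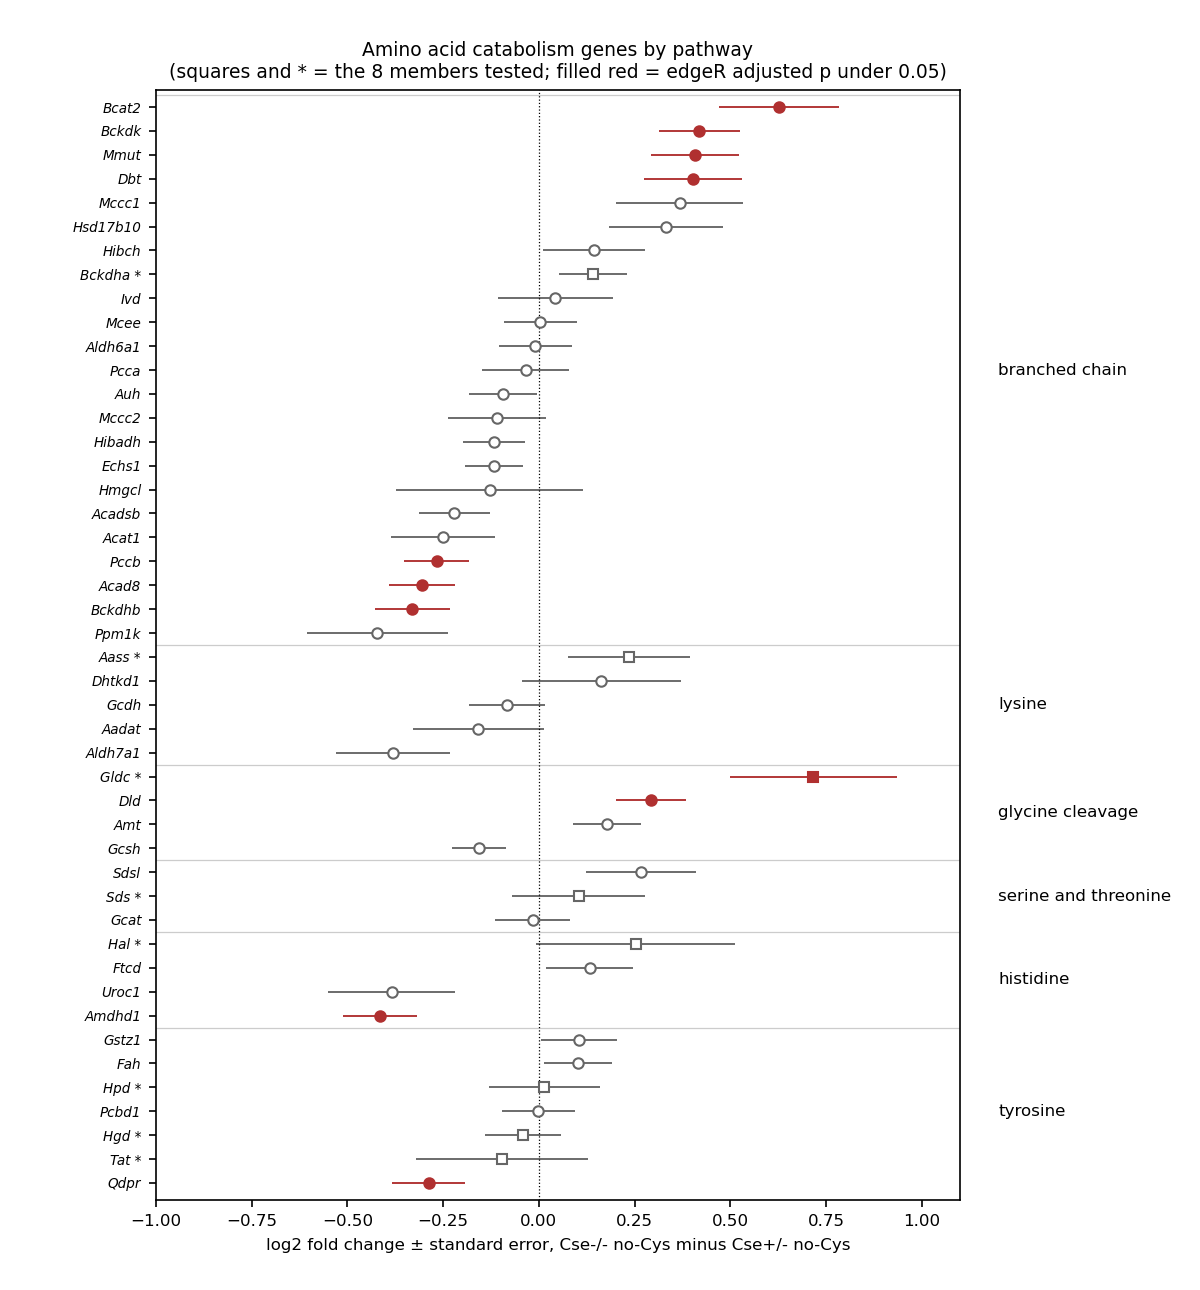
Log2 fold change between the genotypes on the no-Cys diet (horizontal axis, with standard error) for the 8 tested members (squares) and other genes of their pathways (circles), grouped by pathway; filled red points have an edgeR adjusted p under 0.05. Gldc has the highest value, 0.72, and the filled points lie on both sides of 0.

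Correlations between pairs of members over the 20 livers differed widely. The highest correlation of log2 CPM was that of the neighbours Hpd and Hgd (Pearson's r = 0.827, n = 20), followed by Sds and Aass (0.758) and by Hal and Gldc (0.716), and the lowest was that of Tat and Hpd (-0.148). Tat thus tracked neither of the enzymes after it in the pathway. These values describe livers that share groups, scaling and sequencing depth, and no test was made. After each group's mean was subtracted, the highest pair was Hal and Aass (0.893, from 0.454 before), followed by Hpd and Hgd (0.859) and by Hgd and Hal (0.802). Every pair among the 7 members other than Tat was then positive, from 0.226 to 0.893, while Tat had values from -0.327 to 0.368. In the Cse-/- no-Trp group, mouse av15 was the highest of the 3 for all 8 members and av14 the lowest for all 8.

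**Figure D4:**
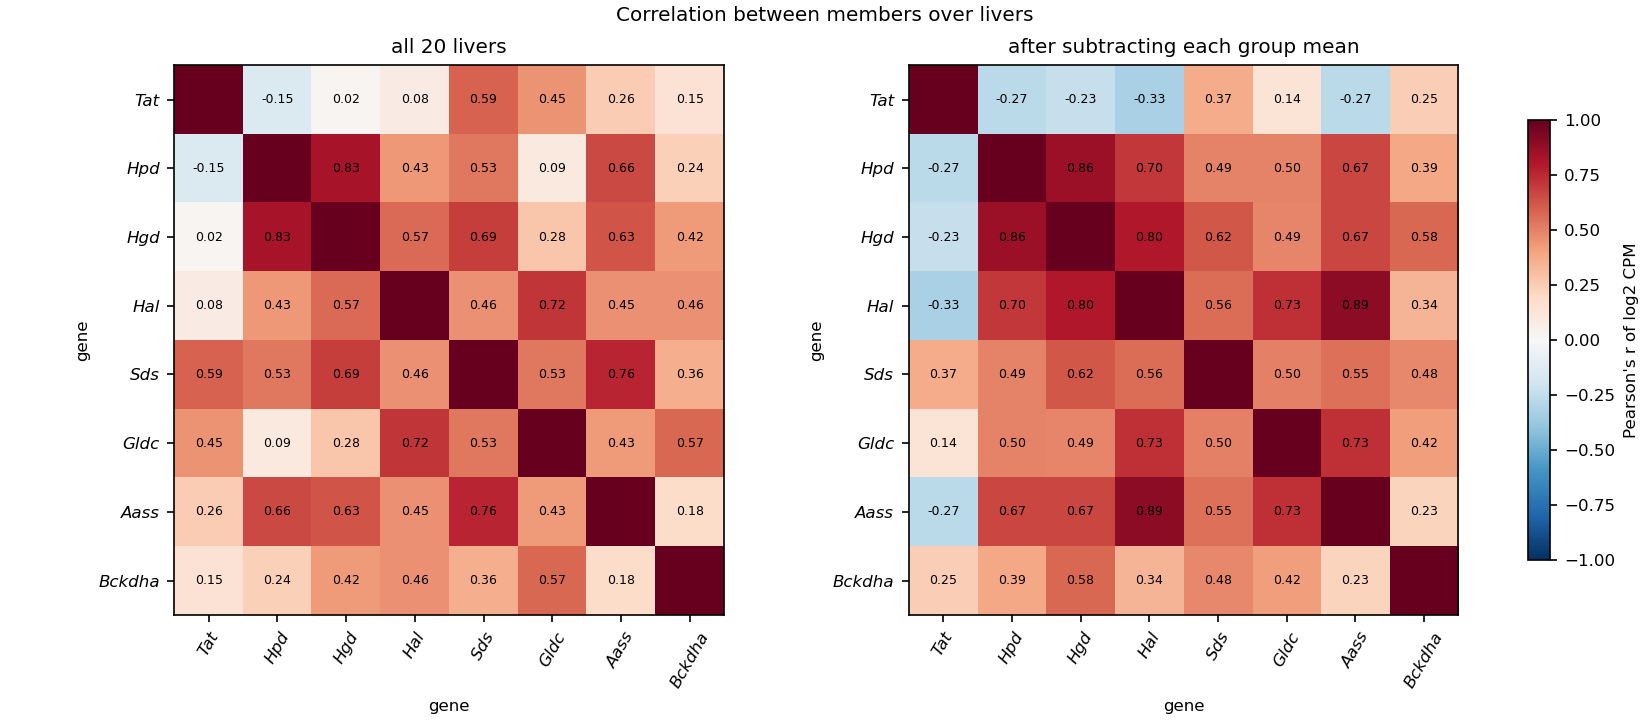
Pearson's r of log2 CPM between each pair of the 8 detected members (rows and columns), over all 20 livers on the left and after subtracting group means on the right; red is positive and blue negative. Hpd and Hgd have the highest value on the left, 0.827, and the row of Tat is the palest, with negative values on the right.

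Among 7844 genes with a mean of at least 10 CPM, those most like each member over the 20 livers were found by Pearson's r of log2 CPM. Sds was most like Asl, argininosuccinate lyase of the urea cycle (r = 0.890), followed by Dgka (0.808), and Aass had Slain2 (0.885) and then Asl (0.837). Gldc was most like Slc25a15, the mitochondrial ornithine carrier (0.879). Hpd was most like Ivd, isovaleryl-CoA dehydrogenase of leucine breakdown (0.847), and Afmid, an enzyme of tryptophan breakdown (0.846). Tat had Klf3 (0.804) and Ddit4 (0.802), a stress-induced inhibitor of mTORC1, while Hal had Gm5096 (0.944) and Slc23a1, a vitamin C transporter (0.890). Hgd had Hpd (0.827) and Adipor1 (0.799), and Bckdha had Scrn2 (0.825) and Ssrp1 (0.804).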

How the data were processed

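Liver RNA was sequenced as paired-end poly(A) libraries, 1 per mouse. The authors deposited unnormalized counts of reads per Ensembl gene. The submitters' processing notes name HISAT2 2.1.0 and HTSeq 0.11.0 with GRCm38; the annotation release and the strand setting are not given in the sources used here, and the kit does not mark strand. Columns are named by mouse number and were assigned to groups through the list of mice in the study; 1 column that this list does not give was not used. The labels name the samples of a group as biological replicates. The members and lists of genes were chosen with earlier results of these data known.

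After filtering with filterByExpr at a minimum count of 10 and a minimum total of 15, 14759 of 46078 genes remained. The quasi-likelihood test of edgeR 4.0.16 (limma 3.58.1, R 4.3.3) was run with TMM factors on 1 fit of all 20 libraries, in which each of 6 groups had its own mean and 14 residual degrees of freedom were left, and two-sided p-values were adjusted over all genes tested by the Benjamini-Hochberg method (threshold 0.05). CPM were computed from the deposited counts and TMM factors, log2 CPM with a prior count of 2. Alternatives were the Wald test (DESeq2 1.42.0), scaling by upper quartiles or by RLE, other filters, a threshold of 0.01, fits of only the groups compared and leaving out each library. On simulated counts for the genotype comparison on no-Cys (14530 genes), the fit recovered 86% of genes changed 2-fold and 96% of those changed 4-fold, with 12 false calls. The changed genes were drawn only from those above a minimum level. Comparisons with fewer than 4 mice in a group were not simulated, so the rates for them are not known. Libraries of the same group differed beyond counting noise in all 25 pairs (chi-square per gene 9.60 to 64.2), so that none was counted as a repeat of another.

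Named were all members, and in each pathway the highest and lowest log2 fold change between genotypes on no-Cys and every gene called there whose groups did not overlap; further genes were named after their values were seen, and a few results are not reported here. Exon lengths, overlaps and coordinates come from GENCODE M21 (GRCm38) and promoters from RefSeq (GRCm38.p6). Figures used Python 3.11.15 with matplotlib 3.10.9.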

Additional observations from a re-analysis of the deposited data

Results flagged for a closer look

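Sds in the Cse+/- no-Cys livers was flagged because mouse av01, at 235.6 CPM, stood apart from the other 3, which lay between 174.4 and 177.9 CPM. This was 1 of 24 groups of 4 livers examined over the 8 members, and chance flags about 1 in 20.

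The genotype difference of 3 genes of amino acid breakdown outside the members differed between the no-Cys and no-Trp diets by the interaction term of edgeR. They were 2 of the 39 other pathway genes tested and, in Oat, 1 of 7 pericentral genes, where 4.36% of all genes were called. The other lists scanned had 0 calls: 7 periportal genes, 8 that respond to glucocorticoids or fasting and 6 hepatocyte transcription factors. Calls were thus about as frequent among the genes scanned as among all genes. Without av14 and av17, the mice with adipose transcripts, all genes called for the interaction went from 643 to 307. For Amdhd1 of histidine breakdown the interaction was -0.66 (SE 0.148, adjusted p = 0.0164), and -0.70 (adjusted p = 0.0360) without these mice. Cse+/- livers read 250 CPM on no-Cys and 149 CPM on no-Trp, and Cse-/- livers 187 and 177 CPM. For Ppm1k, the phosphatase of the branched-chain dehydrogenase, it was -1.03 (SE 0.281, adjusted p = 0.0420), and -1.41 (adjusted p = 0.0159) without them. Its means were 112 and 76.2 CPM in Cse+/- livers and 83.3 and 116 CPM in Cse-/- livers, in the same order. For Oat, ornithine aminotransferase, it was 0.75 (SE 0.188, adjusted p = 0.0271), with 538 and 714 CPM in Cse+/- livers and 791 and 623 CPM in Cse-/- livers. Without the same mice the call for Oat was lost (0.71, adjusted p = 0.0884, edgeR). For the same interaction, 2 of 5 hepatocyte markers and 1 of 3 red cell markers were called lower by edgeR, and 1 of 5 endothelial markers higher. None of the other markers tested was called. The part of these markers in the 3 results was not tested.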

How the results depend on the processing

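Of 552 values of the 72 member results under settings other than leaving out 1 library, 535 kept their side of the threshold, 12 were newly called and 5 were no longer called. Of 544 values with 1 library left out, 530 kept their side, 5 were newly called and 9 were no longer called. The sign changed in 17 and 58 of these values, 0 of them called before or after, and the largest among them were 0.25 in size before and 0.26 after. In numbers of members called, a threshold of 0.01 gave 0 between genotypes on no-Cys and 0 on no-Trp against control. DESeq2 gave 2 between no-Trp with BSO and no-Cys and 3 against control on either depleted diet. No filter on low counts gave 2 between no-Trp with BSO and no-Cys, 3 on no-Trp against control and 1 between genotypes on no-Trp. Fitting only the groups compared gave 2 between no-Trp with BSO and no-Cys and 0 on no-Trp against control. Without av14 and av17, an alternative chosen after seeing the data, the count was 0 for Cse-/- no-Cys against no-Trp and 0 for no-Trp against control. Leaving out single libraries gave 0 to 1 between genotypes on no-Cys, 0 to 3 for Cse-/- no-Cys against no-Trp, 0 to 2 for no-Trp with BSO against no-Cys, 0 to 2 for no-Cys against control and 0 to 1 for no-Trp against control. The cause was not tested. Where 1 control liver was left, its spread was taken from the other groups.

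Counts of all genes called also moved: no-Trp against control had 7 by edgeR and 60 by DESeq2, no-Trp with BSO against no-Trp 117 and 352, the same diet against no-Cys 406 and 876, genotypes on no-Trp 389 and 720, no-Cys against control 322 and 613, and the interaction 643 and 1055. Fitting only the groups compared gave 546 for no-Trp with BSO against no-Cys and lowered the others that moved by over 1.5 times, to 521 from 1535 for Cse-/- no-Cys against no-Trp, 580 from 1186 for the same diets in Cse+/- mice, 83 for genotypes on no-Trp, 138 for no-Cys against control, 75 for BSO against no-Trp, 3 for no-Trp against control and 375 for the interaction. With no filter on low counts they were 287 for BSO against no-Trp, 486 for no-Cys against control and 71 for no-Trp against control. Without av14 and av17 they were 730 for Cse-/- no-Cys against no-Trp, 307 for the interaction and 3 for no-Trp against control. The shares of all genes set beside the members move with these counts. With 2 control mice, differences from control rest on few animals. No paired analysis was possible because the columns of the table carry mouse numbers and not the replicate numbers of the labels.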

Other observations

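A urea cycle gene and zonal genes were read in the same livers. Between genotypes on no-Cys, Cps1 (0.58, SE 0.204, adjusted p = 0.0457, edgeR), which commits ammonia to the urea cycle, was higher in Cse-/- livers. Of 7 genes known for periportal hepatocytes 3 rose and 2 fell, and of 7 known for pericentral hepatocytes 2 rose and 1 fell, where 11.6% of all genes rose and 12.2% fell. Oat (0.56, adjusted p = 0.00290) and Cyp1a2 (0.73, adjusted p = 0.0340) were the pericentral genes that rose, and Lgr5 (-1.12, adjusted p = 0.0103) fell. Neither list had calls in only 1 direction.

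Of 8 genes that respond to glucocorticoids or fasting, 0 rose and 2 fell in the same comparison, beside the same shares of all genes. Tsc22d3, a glucocorticoid-induced leucine zipper protein, ranged from 290.2 to 379 CPM in Cse+/- and from 79.3 to 163 CPM in Cse-/- no-Cys livers (n = 4 each; -1.40, SE 0.276, adjusted p = 0.00119, edgeR), and Sgk1 fell too (-0.67, SE 0.174, adjusted p = 0.00821, edgeR). Fkbp5, another glucocorticoid-induced gene, had the opposite sign without a call, with means of 142 CPM in Cse+/- and 207 CPM in Cse-/- livers (0.54, SE 0.223, adjusted p = 0.0838, edgeR), and Ppargc1a read 0.48 (adjusted p = 0.231). Of 6 hepatocyte transcription factors 0 rose and 2 fell, the glucocorticoid receptor gene Nr3c1 (-0.38, adjusted p = 0.00868, edgeR) and Cebpb (-0.68, adjusted p = 0.0271, edgeR). Tat read -0.10 in that comparison (95% interval -0.58 to 0.39).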
